A study of Mus musculus with 6 samples.

Results

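Genes of bile acid synthesis and of hepatic bile acid and sterol transport were followed in the ribosome-bound mRNA of mouse hepatocytes that were repopulating an injured liver. The set has 40 genes, taken by symbol from a table of 35970 symbols. By textbook role, 19 act in synthesis, 8 in uptake from blood, 7 in export across the canalicular membrane, 4 in export across the sinusoidal membrane and 2 in signalling. All recipient mice were Fah-/-;dCas9+. Without Fah, an enzyme at the end of tyrosine catabolism, hepatocytes are poisoned by upstream metabolites. The other allele, dCas9, supplies a catalytically inactive Cas9 that represses a gene when a guide RNA brings it to the promoter (CRISPR interference, CRISPRi). Every mouse received a hydrodynamic tail vein injection of a transposon plasmid, pkt2-fah-GFPL10a-CRISPRi, which supplied Fah, ribosomal protein L10a fused to GFP, and a guide, together with a Cre virus, AAV8.TBG.PI.Cre.rBG, whose TBG promoter is active in hepatocytes. The protective drug nitisinone was withdrawn at injection, and livers were taken 4 weeks later. The 3 control mice had a non-targeting guide and the 3 other mice a guide against Neurl1b (Neurl1b CRISPRi). Ribosomes carrying the GFP fusion were then pulled down (TRAP, translating ribosome affinity purification), which draws mainly on cells with the plasmid. Strain, age and sex are not in the labels, and the Y-linked transcript Eif2s3y was present in all 6 libraries, at 19.3 to 35.7 TPM.

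Bile acids are made from cholesterol in hepatocytes, by a classical route that Cyp7a1 opens and an alternative route that Cyp27a1 and Cyp7b1 open, and Cyp8b1 sets how much cholic acid is formed. The products are finished in peroxisomes, joined to taurine or glycine, pumped into the canaliculus and returned from the gut through the portal blood, from which sinusoidal carriers take them up again. Under bile acid load the liver is known to lower synthesis and uptake, largely through the receptors FXR (Nr1h4) and SHP (Nr0b2). It is also known to raise export back into blood.

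The values were TPM, a transcript's abundance corrected for its length and scaled so that each library has the same total. Such values carry no record of read numbers, so the depth of the libraries is unknown. Neurl1b, which encodes an E3 ubiquitin ligase acting on Notch ligands, had 1.22, 0.897 and 0.688 TPM in the non-targeting mice and 0.295, 0.351 and 0.307 TPM in the Neurl1b CRISPRi mice, so that the groups were apart in the direction of the labels. Its mean of 0.627 TPM was below the filter of 1 used for testing. In a limma fit without the filter its adjusted p was 0.430, and the exact two-sided permutation p was 0.1, the smallest that 3 against 3 allows. Non-targeting mouse 1 stood apart from the other control mice: in 76.6% of all 10598 genes tested, and in 22 of 37 tested members, its log2 value lay nearer the mean of the Neurl1b CRISPRi libraries than the mean of the other controls. By the same count, non-targeting mouse 2 lay nearer in 27.3% of all genes and in 6 members. Non-targeting mouse 3 did so in 33.9% of all genes and in 18 members, so among the members it was not far from mouse 1. These counts used unscaled values. The median-of-ratios size factor, a library's typical gene level relative to the others, was 1.12 in non-targeting mouse 1. It was 1.05 to 1.09 in the Neurl1b CRISPRi mice, but 0.849 and 0.838 in non-targeting mice 2 and 3. An offset over most genes thus enters the counts, and its part was not tested. Because of the count over all genes, results are given with and without non-targeting mouse 1. Because it was singled out by its likeness to the Neurl1b CRISPRi libraries, leaving it out enlarges differences between the groups by construction. Values without it are descriptions of the remaining libraries, and their adjusted p do not count as support. The hepatocyte markers Alb, Apoa1, Ttr, Serpina1a and Cps1 summed to 25288 to 57571 TPM in the controls and to 21716 to 29255 TPM in the Neurl1b CRISPRi mice. The summed stellate cell markers, all 6 of them above 0, were 10.3 to 23.1 TPM in the controls and 25.9 to 37.96 TPM in the Neurl1b CRISPRi mice, without overlap. The stellate sum is mostly Dcn, which was apart, as were Lrat and Des, while Col1a1, Col3a1 and Pdgfrb overlapped. The summed markers of Kupffer cells and macrophages, again all 6 above 0, were 35.9 to 71.0 TPM in the controls and 60.2 to 80.7 TPM in the Neurl1b CRISPRi mice. That sum is mostly C1qa and Clec4f, which overlapped, while the other 4, Adgre1, Cd68, Csf1r and Vsig4, were apart and had 1.72-fold to 2.06-fold higher means in the Neurl1b CRISPRi mice. The part of these cells in the results below was not tested. In bulk libraries, fewer cells of a type and less RNA per cell cannot be told apart.

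The role medians were above 0 for sinusoidal and canalicular export and below 0 for synthesis and uptake, with members of both signs in each role but sinusoidal export, and no member passed the test across all genes. Of the 40 members, 37 had a mean TPM of at least 1 and were tested with limma on log2(TPM + 1). None passed an adjusted p of 0.05, which 0.0189% of all genes did. The lowest adjusted p of a member was 0.310, for Slc10a1, and 9 members had an unadjusted limma p below 0.05, 6 with more TPM in the Neurl1b CRISPRi mice (10.1% of all genes) and 3 with less (3.19% of all genes). The median log2 fold change was 0.89 over the 4 sinusoidal exporters, 0.44 over the 7 canalicular exporters, -0.12 over the 19 synthesis genes and -0.27 over the 6 tested uptake genes, beside 0.18 over all genes tested. Over all 37 members it was 0.14.

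The groups did not overlap in 10 of the tested members, nor in Slco1a1 below the filter. Of these, 5 were higher in the Neurl1b CRISPRi mice, namely Abcc3, Abcc4, Abcg5, Abcg8 and Cyp27a1, which is 13.5% of the tested members beside 12.5% of all genes. The other 5 were lower, namely Slc10a1, Slco1b2, Slco2b1, Cyp8b1 and Akr1c6, again 13.5% of members but beside 4.57% of all genes. Median-of-ratios scaling, which brings the median of all genes from 0.18 to -0.0013, left the higher count at 5 members (9.42% of all genes) and brought the lower count to 8 (9.37% of all genes).

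**Figure D1:**
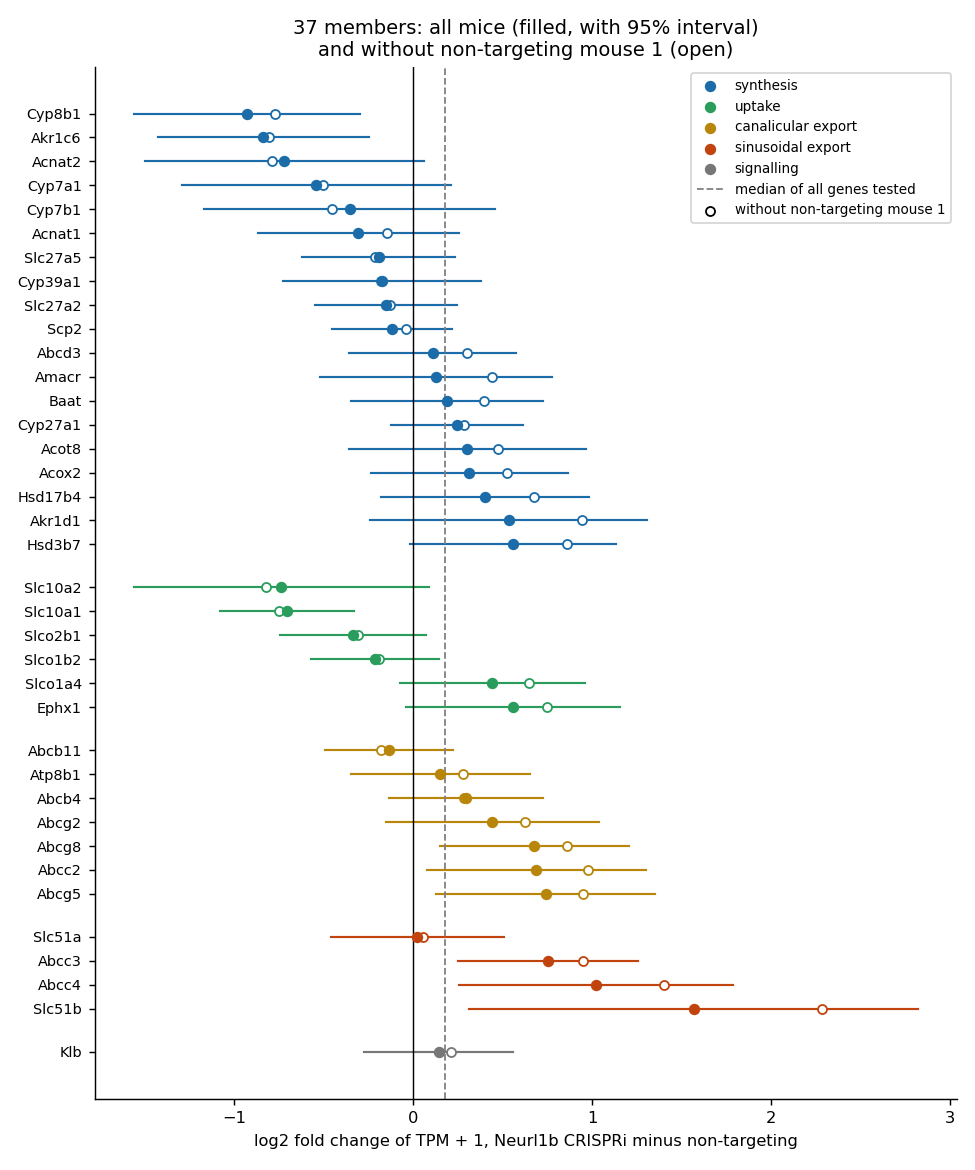
Log2 fold change of TPM + 1 (x axis, Neurl1b CRISPRi minus non-targeting) of the 37 tested members (y axis), grouped by role, with 95% intervals from limma for all mice (filled points) and the value without non-targeting mouse 1 (open points). The dashed line marks the median of all genes tested, 0.18. Among the exporters Slc51b, Abcc4 and Abcc3 lie farthest to the right, and Cyp8b1, Akr1c6 and Slc10a1 have intervals wholly below 0.

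Leaving out non-targeting mouse 1 enlarges group differences by construction, so calls and adjusted p from fits without it do not count as support. Without non-targeting mouse 1, 11 members passed an adjusted p of 0.05 in limma. Of these, 10 were higher in the Neurl1b CRISPRi mice: Abcc2, Abcc3, Abcc4, Abcg5, Abcg8, Slc51b, Slco1a4, Akr1d1, Hsd3b7 and Hsd17b4. That is 27.0% of the tested members beside 23.1% of all genes in the same fit. The uptake carrier Slc10a1 was the 1 lower member, 2.70% of the tested members beside 2.24% of all genes. When median-of-ratios scaling was added, Slc51b passed as higher and Slc10a1 as lower, 1 member in each direction beside 1.74% and 2.74% of all genes. The other members named here then had a limma adjusted p of 0.0535 (Abcc4) to 0.231 (Hsd17b4). By role, 3 of 4 sinusoidal, 3 of 7 canalicular, 3 of 19 synthesis and 2 of 6 uptake genes passed when only the mouse was left out. The groups were then apart in 16 higher and 5 lower members, beside 52.3% and 8.08% of all genes, and after scaling in 9 higher and 11 lower members, beside 24.4% and 25.1%.

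Among the hydroxylases that open the pathway, the level of Cyp7a1, the rate-limiting enzyme of the classical route, was low and variable. It had 7.79, 11.2 and 4.37 TPM in the non-targeting mice and 3.32, 4.60 and 6.70 TPM in the Neurl1b CRISPRi mice. The groups overlapped, because non-targeting mouse 3 was below 2 of the 3 Neurl1b CRISPRi mice. The log2 fold change was -0.54 (standard error 0.33, 95% interval -1.29 to 0.21, limma adjusted p = 0.448). Leaving out non-targeting mouse 2 gave -0.27, and leaving out non-targeting mouse 3 gave -0.86 with the groups apart, while the omission of Neurl1b CRISPRi mouse 1 gave -0.34. Cyp8b1, the sterol 12-alpha-hydroxylase that directs synthesis to cholic acid, had 28.9, 19.3 and 21.7 TPM in the controls and 13.0, 15.8 and 7.54 TPM in the Neurl1b CRISPRi mice. All 3 control values were above all 3 Neurl1b CRISPRi values. The means were 23.3 ± 5.001 and 12.1 ± 4.18 TPM (SD, n = 3 each), a 1.93-fold lower level, with a log2 fold change of -0.93 (SE 0.28, limma adjusted p = 0.323), and of -0.77 without non-targeting mouse 1.

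The hydroxylases of the alternative route had differences of opposite sign. Cyp27a1, the mitochondrial sterol 27-hydroxylase, had 171, 136 and 183 TPM in the controls and 197, 193 and 189 TPM in the Neurl1b CRISPRi mice. The groups were apart by a narrow margin, and the log2 fold change was 0.25 (standard error 0.16, limma adjusted p = 0.464), which became 0.03 with overlapping groups after median-of-ratios scaling. Cyp7b1, the oxysterol 7-alpha-hydroxylase, had 14.5, 10.5 and 30.4 TPM in the controls and 14.7, 14.9 and 9.78 TPM in the Neurl1b CRISPRi mice. Non-targeting mouse 3 alone was high, and the log2 fold change of -0.35 (SE 0.36, limma adjusted p = 0.612) was 0.06 without that mouse. Cyp39a1, which hydroxylates 24-hydroxycholesterol, ranged from 11.9 to 18.1 TPM and from 10.8 to 17.7 TPM in the same order of groups. Log2 ratios within each library were taken as differences of log2(TPM + 1), which shrinks them for low genes. The ratio of Cyp8b1 to Cyp7a1 was 1.77, 0.74 and 2.08 in the controls and 1.70, 1.58 and 0.15 in the Neurl1b CRISPRi mice (exact two-sided permutation p = 0.5, adjusted p = 0.720 over 6 ratios). The ratio of Cyp7b1 to Cyp7a1 was no more separated (exact two-sided permutation p = 0.9).

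The 3 enzymes that oxidise and reduce the sterol ring split between directions. Akr1c6, a hydroxysteroid dehydrogenase of the aldo-keto reductase family, had 543, 574 and 450 TPM in the non-targeting mice and 305, 409 and 197 TPM in the Neurl1b CRISPRi mice, without overlap. The means were 523 ± 64.5 and 304 ± 106 TPM (SD, n = 3 each), and the log2 fold change was -0.84 (standard error 0.26, limma adjusted p = 0.330), or -0.56 without Neurl1b CRISPRi mouse 3. Akr1c genes have close paralogs, so the assignment of reads to Akr1c6 is uncertain. Hsd3b7, the 3-beta-hydroxysteroid dehydrogenase that acts after 7-alpha-hydroxylation, had 125, 70.5 and 62.6 TPM in the controls and 119, 119 and 126 TPM in the Neurl1b CRISPRi mice. Akr1d1, the steroid 5-beta-reductase, had 103, 44.9 and 42.3 TPM and 94.05, 65.9 and 97.7 TPM in the same order. For both genes non-targeting mouse 1 was as high as the Neurl1b CRISPRi mice while the other controls were lower than all of them. Their log2 fold changes were 0.56 and 0.53 with all mice (limma adjusted p = 0.382 and 0.459) and 0.86 and 0.94 without that mouse (limma adjusted p = 0.0173 and 0.0269), but 0.36 and 0.31 without non-targeting mouse 3. With median-of-ratios scaling they were 0.35 and 0.32 with all mice. Also without non-targeting mouse 1 they were 0.51 and 0.60 (limma adjusted p = 0.0607 and 0.120).

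The peroxisomal steps, in which the side chain is imported and shortened, included Scp2, the most abundant member, and showed small differences. Scp2, whose long product is the thiolase of side chain cleavage and whose short product is a sterol carrier, had the highest level of all members, with 1801, 1606 and 1462 TPM in the controls and 1439, 1550 and 1487 TPM in the Neurl1b CRISPRi mice. The interval of its log2 fold change of -0.12 was -0.45 to 0.22. Hsd17b4, the peroxisomal bifunctional protein, had 152, 75.1 and 96.6 TPM in the controls and 150, 143 and 119 TPM in the Neurl1b CRISPRi mice. Non-targeting mouse 1 was the highest library of all, and without it the log2 fold change moved from 0.40 (limma adjusted p = 0.459) to 0.68 (limma adjusted p = 0.0384), and without non-targeting mouse 2 it was 0.17. Median-of-ratios scaling gave 0.19 with all mice and 0.33 also without non-targeting mouse 1 (limma adjusted p = 0.231). Acox2, the branched-chain acyl-CoA oxidase, had 121, 91.5 and 65.9 TPM in the controls and 104, 99.8 and 137 TPM in the Neurl1b CRISPRi mice (log2 fold change 0.31, SE 0.24). Acot8, a peroxisomal thioesterase, had 41.9, 22.8 and 36.8 TPM and 53.9, 43.0 and 29.0 TPM in the same order (log2 fold change 0.30, SE 0.29). Slc27a2, the very long-chain acyl-CoA synthetase, had 241, 248 and 214 TPM in the controls and 245, 220 and 173 TPM in the Neurl1b CRISPRi mice (log2 fold change -0.15, SE 0.17). These 3 also overlapped between the groups, as did Amacr, the racemase, with 42.5 to 98.9 TPM over all libraries, and Abcd3, the peroxisomal importer, with 61.1 to 101 TPM. The log2 fold changes of the 7 genes lay between -0.15 and 0.40, and none of the groups was apart.

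Of the 4 genes of activation and conjugation, none had groups apart. Slc27a5, the bile acyl-CoA synthetase, had 157, 188 and 141 TPM in the non-targeting mice and 129, 125 and 172 TPM in the Neurl1b CRISPRi mice. Baat, which joins bile acids to taurine or glycine, had 72.3, 50.6 and 42.5 TPM in the controls and 55.0, 54.9 and 76.8 TPM in the Neurl1b CRISPRi mice. The values of both were interleaved between the groups. Acnat2, an acyl-CoA N-acyltransferase of the Baat family, had 28.7, 55.3 and 19.6 TPM in the controls and 20.4, 15.2 and 21.2 TPM in the Neurl1b CRISPRi mice, with a log2 fold change of -0.72 (SE 0.34, limma adjusted p = 0.394). Non-targeting mouse 2 was the high library, and without it the value was -0.32. Its paralog Acnat1 had 15.7, 14.2 and 8.35 TPM in the controls and 8.61, 11.2 and 9.72 TPM in the Neurl1b CRISPRi mice (log2 fold change -0.31, SE 0.25), and the division of reads between Acnat1 and Acnat2 is uncertain.

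Among uptake carriers, Slc10a1, which encodes NTCP, the sodium-dependent carrier that takes conjugated bile acids from portal blood, had the smallest p of all members. It had 73.5, 91.8 and 70.5 TPM in the non-targeting mice and 50.0, 44.8 and 48.2 TPM in the Neurl1b CRISPRi mice. The lowest control value was above the highest Neurl1b CRISPRi value, and the Neurl1b CRISPRi values lay close together. The means were 78.6 ± 11.5 and 47.6 ± 2.64 TPM (SD, n = 3 each), a 1.65-fold lower level. The log2 fold change was -0.70 (standard error 0.16, 95% interval -1.08 to -0.33), with an unadjusted limma p of 0.00236 and an adjusted p of 0.310. Leaving out non-targeting mouse 1 gave -0.75 (limma adjusted p = 0.0258), and -1.09 with median-of-ratios scaling as well (limma adjusted p = 0.0341). Non-targeting mouse 1, which resembled the Neurl1b CRISPRi mice for many genes, had a control-like level of Slc10a1.

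The organic anion transporting polypeptides, sodium-independent carriers of bile acids and drugs, were unequal in level and direction. Slco1b2 had 67.6, 67.4 and 61.2 TPM in the controls and 49.4, 60.2 and 59.8 TPM in the Neurl1b CRISPRi mice, and Slco2b1 had 11.8, 12.9 and 9.56 TPM and 9.17, 9.14 and 8.09 TPM in the same order. Both were apart and lower in the Neurl1b CRISPRi mice, by a margin that was small beside the spread within the groups (log2 fold changes -0.21, SE 0.16, and -0.33, SE 0.18, limma adjusted p = 0.505 and 0.410). Slco1a4 had 3.97, 2.50 and 1.98 TPM in the controls and 3.45, 4.25 and 4.56 TPM in the Neurl1b CRISPRi mice, with a log2 fold change of 0.44 (limma adjusted p = 0.406) and of 0.65 without non-targeting mouse 1 (limma adjusted p = 0.0350), but 0.28 without non-targeting mouse 3. Median-of-ratios scaling gave 0.29 with all mice and 0.39 also without non-targeting mouse 1 (limma adjusted p = 0.168). Slco1a1, known as a major carrier of adult male mouse liver, had only 0.168, 0.189 and 0.256 TPM in the controls and 0.320, 0.296 and 0.307 TPM in the Neurl1b CRISPRi mice. Its groups were apart, but it was below the filter, in libraries that all contained Y-linked transcripts. The log2 ratio of Slco1a4 to Slco1a1 did not separate the groups (exact two-sided permutation p = 0.4, adjusted p = 0.720 over 6 ratios). With 1 added to each TPM, that ratio mostly followed Slco1a4.

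The other uptake genes ranged from Ephx1, the most abundant of the uptake members, to carriers near the filter. Ephx1, the microsomal epoxide hydrolase, which has also been described as a bile acid carrier, had 661, 356 and 562 TPM in the non-targeting mice and 944, 749 and 600 TPM in the Neurl1b CRISPRi mice. The highest control lay above the lowest Neurl1b CRISPRi mouse, and the log2 fold change was 0.56 (standard error 0.26, limma adjusted p = 0.392), or 0.30 without non-targeting mouse 2. Slc10a2, the sodium-dependent carrier of ileum and bile duct epithelium, had 1.66, 4.47 and 0.819 TPM in the controls and 1.01, 0.582 and 0.798 TPM in the Neurl1b CRISPRi mice. Non-targeting mouse 2 set most of its log2 fold change of -0.74 (SE 0.36, limma adjusted p = 0.398), and without that mouse the gene missed the filter. Slc10a5, a carrier of the same family, stayed between 0.302 and 1.34 TPM.

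The upstream sequence of Slc10a1 and that of Cyp8b1, the members with the smallest p among the lower genes, are shown with 2 short motifs that a script searched on both strands in the 250 bases before each start in RefSeq promoter windows of GRCm38.p6. The table gave windows for 30 of the 40 members. The nuclear receptor half-site AGGTCA, searched after the data were seen, is in capitals for Slc10a1 (chr12:80968080-80968329, minus strand, the downstream of 2 annotated starts). The window of the upstream start, not shown, held no half-site. The core of the antioxidant response element, TGAC then 3 of any base then GC, is in capitals for Cyp8b1 (chr9:121916306-121916555, minus strand), where it lies on the opposite strand.
Slc10a1: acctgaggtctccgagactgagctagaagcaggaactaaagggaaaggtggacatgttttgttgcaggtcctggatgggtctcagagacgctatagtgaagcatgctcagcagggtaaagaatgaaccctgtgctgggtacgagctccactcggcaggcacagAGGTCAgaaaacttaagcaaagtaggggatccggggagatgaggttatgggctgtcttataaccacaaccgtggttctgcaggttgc
Cyp8b1: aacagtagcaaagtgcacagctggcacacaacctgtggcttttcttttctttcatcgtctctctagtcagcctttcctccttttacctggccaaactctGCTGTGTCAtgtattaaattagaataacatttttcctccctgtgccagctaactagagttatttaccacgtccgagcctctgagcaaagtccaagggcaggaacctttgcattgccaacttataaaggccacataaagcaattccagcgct
The half-site was found in 12 of the 40 member windows (30.0%) and in 14.0% of all 32851 windows, and the antioxidant core in 7 of the 40 member windows (17.5%) and in 10.2% of all windows. Several members have more than 1 window, so these windows are not independent. The full inverted repeat of the half-site with 1 base between, the form FXR is known to bind, was searched with exact letters. It was in no member window and in 2 of all windows. A match describes letters only. A miss does not show that a site is absent, because sites with other letters or outside the 250 bases were not searched.

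Canalicular exporters, which fill the bile, were mostly higher in the Neurl1b CRISPRi mice, with 6 of 7 above 0, but that count includes the shift that put 74.0% of all genes above 0. Abcb11, the bile salt export pump, was the exception at the gene level. It had 166, 164 and 199 TPM in the controls and 144, 172 and 165 TPM in the Neurl1b CRISPRi mice, with groups that overlapped and a log2 fold change of -0.14 (95% interval -0.49 to 0.22). Abcc2, which exports bilirubin glucuronides and other conjugates, had 46.5, 21.3 and 29.5 TPM in the controls and 54.9, 52.5 and 44.3 TPM in the Neurl1b CRISPRi mice. Non-targeting mouse 1 lay within the Neurl1b CRISPRi range, and the log2 fold change was 0.69 (standard error 0.27, limma adjusted p = 0.351), or 0.98 without that mouse (limma adjusted p = 0.0227) and 0.43 without non-targeting mouse 2 (limma adjusted p = 0.784). Median-of-ratios scaling gave 0.48 with all mice and 0.63 also without non-targeting mouse 1 (limma adjusted p = 0.0820). Abcg2, which exports sulfated conjugates and drugs, had 52.0, 26.6 and 46.9 TPM in the controls and 60.8, 58.8 and 46.4 TPM in the Neurl1b CRISPRi mice, so that the groups overlapped (log2 fold change 0.44, SE 0.26, limma adjusted p = 0.441). Leaving out non-targeting mouse 2 gave 0.15. Abcb4, the phosphatidylcholine floppase, ranged from 47.1 to 73.8 TPM and from 70.8 to 73.6 TPM. Atp8b1, the phosphatidylserine flippase that protects the canalicular membrane, ranged from 1.27 to 2.66 TPM and from 2.23 to 2.64 TPM.

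Abcg5 and Abcg8, which form the heterodimer that secretes cholesterol into bile, had parallel levels over the mice. Abcg5 had 19.3, 13.2 and 11.2 TPM in the non-targeting mice and 20.1, 20.98 and 34.3 TPM in the Neurl1b CRISPRi mice. Abcg8 had 15.0, 10.6 and 9.24 TPM in the non-targeting mice and 17.8, 15.8 and 23.7 TPM in the Neurl1b CRISPRi mice. For both genes the groups were apart by a small margin, non-targeting mouse 1 was the highest control and Neurl1b CRISPRi mouse 3 the highest library. Their mean TPM was 1.73-fold and 1.64-fold higher, with log2 fold changes of 0.74 (SE 0.27) and 0.68 (SE 0.23) and a limma adjusted p of 0.344 each, and without non-targeting mouse 1 of 0.95 and 0.86 (limma adjusted p = 0.0432 and 0.0302). With median-of-ratios scaling the log2 fold changes were 0.54 and 0.48 with all mice. Also without non-targeting mouse 1 they were 0.62 and 0.53 (limma adjusted p = 0.182 and 0.147). The log2 ratio of Abcg5 to Abcg8 was 0.34, 0.28 and 0.26 in the controls and 0.17, 0.39 and 0.51 in the Neurl1b CRISPRi mice, a difference within the spread (exact two-sided permutation p = 0.6, adjusted p = 0.720 over 6 ratios). The genes lie head to head, with starts 110 bases apart in RefSeq (GRCm38.p6). The 109 bases between the starts (chr17:84683012-84683120, written on the plus strand, that of Abcg8) are shown because both genes share them, and they held none of the motifs searched.
Abcg5-Abcg8: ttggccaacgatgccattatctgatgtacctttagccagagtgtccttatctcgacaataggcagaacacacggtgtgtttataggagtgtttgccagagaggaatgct

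Sinusoidal exporters, which return bile acids and conjugates to blood, had the highest median log2 fold change of the 4 transport and synthesis roles. Abcc3, a carrier of glucuronides and bile salts, had 114, 63.7 and 89.5 TPM in the non-targeting mice and 159, 146 and 136 TPM in the Neurl1b CRISPRi mice. All Neurl1b CRISPRi values were above all control values. The means were 89.1 ± 25.1 and 147 ± 11.3 TPM (SD, n = 3 each), a 1.65-fold higher level, with a log2 fold change of 0.75 (SE 0.22, limma adjusted p = 0.323) and of 0.95 without non-targeting mouse 1 (limma adjusted p = 0.0227). Median-of-ratios scaling gave 0.54 with all mice and 0.60 also without non-targeting mouse 1 (limma adjusted p = 0.0900). Abcc4, which carries bile acids together with glutathione, had 28.5, 9.51 and 16.01 TPM in the controls and 37.7, 33.6 and 32.0 TPM in the Neurl1b CRISPRi mice, again apart, with non-targeting mouse 1 just below the Neurl1b CRISPRi range. The mean was 1.91-fold higher, the log2 fold change was 1.02 (standard error 0.33, limma adjusted p = 0.339), and without that mouse it was 1.40 (limma adjusted p = 0.0192). Without non-targeting mouse 2, the lowest control, it was 0.66 (limma adjusted p = 0.701). Median-of-ratios scaling gave 0.82 with all mice and 1.07 also without non-targeting mouse 1 (limma adjusted p = 0.0535).

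Slc51a and Slc51b encode the subunits of the organic solute transporter, which works only as a pair. Slc51b had 28.2, 4.10 and 7.48 TPM in the non-targeting mice and 35.0, 24.6 and 34.7 TPM in the Neurl1b CRISPRi mice. Non-targeting mouse 1 lay within the Neurl1b CRISPRi range, while the other controls were lower than every other library. The log2 fold change of 1.57 (SE 0.55, 95% interval 0.31 to 2.82, limma adjusted p = 0.344) was the largest of all members, and it was 2.28 without non-targeting mouse 1 (limma adjusted p = 0.0173) and 1.97 with median-of-ratios scaling as well (limma adjusted p = 0.0359). Without non-targeting mouse 2, the lowest library, it was 1.02 (limma adjusted p = 0.762). Slc51a had 2.83, 1.90 and 3.45 TPM in the controls and 2.32, 2.63 and 3.30 TPM in the Neurl1b CRISPRi mice. These values were interleaved, and the interval of the log2 fold change of 0.02 was -0.46 to 0.51.

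Bile duct cells also express Slc51a, Slc51b, Abcc3 and Slc10a2, and their markers were measured beside these genes. Krt19 had 2.65, 0.264 and 1.81 TPM in the controls and 4.04, 3.70 and 2.98 TPM in the Neurl1b CRISPRi mice, without overlap. All 6 cholangiocyte markers were above 0 in some library, and Cftr stayed at or below 0.0105 TPM. Their sum was 25.7, 13.3 and 25.3 TPM in the controls and 23.8, 23.7 and 15.9 TPM in the Neurl1b CRISPRi mice, so that it overlapped, and it consisted mostly of Spp1 and Sox9, whose means were lower in the Neurl1b CRISPRi mice. Epcam and Krt7, at 0.0823 to 1.64 TPM, had 2.01-fold and 1.62-fold higher means there, with overlap. The part of bile duct, stellate or macrophage RNA in the results for these 4 members was not tested.

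**Figure D2:**
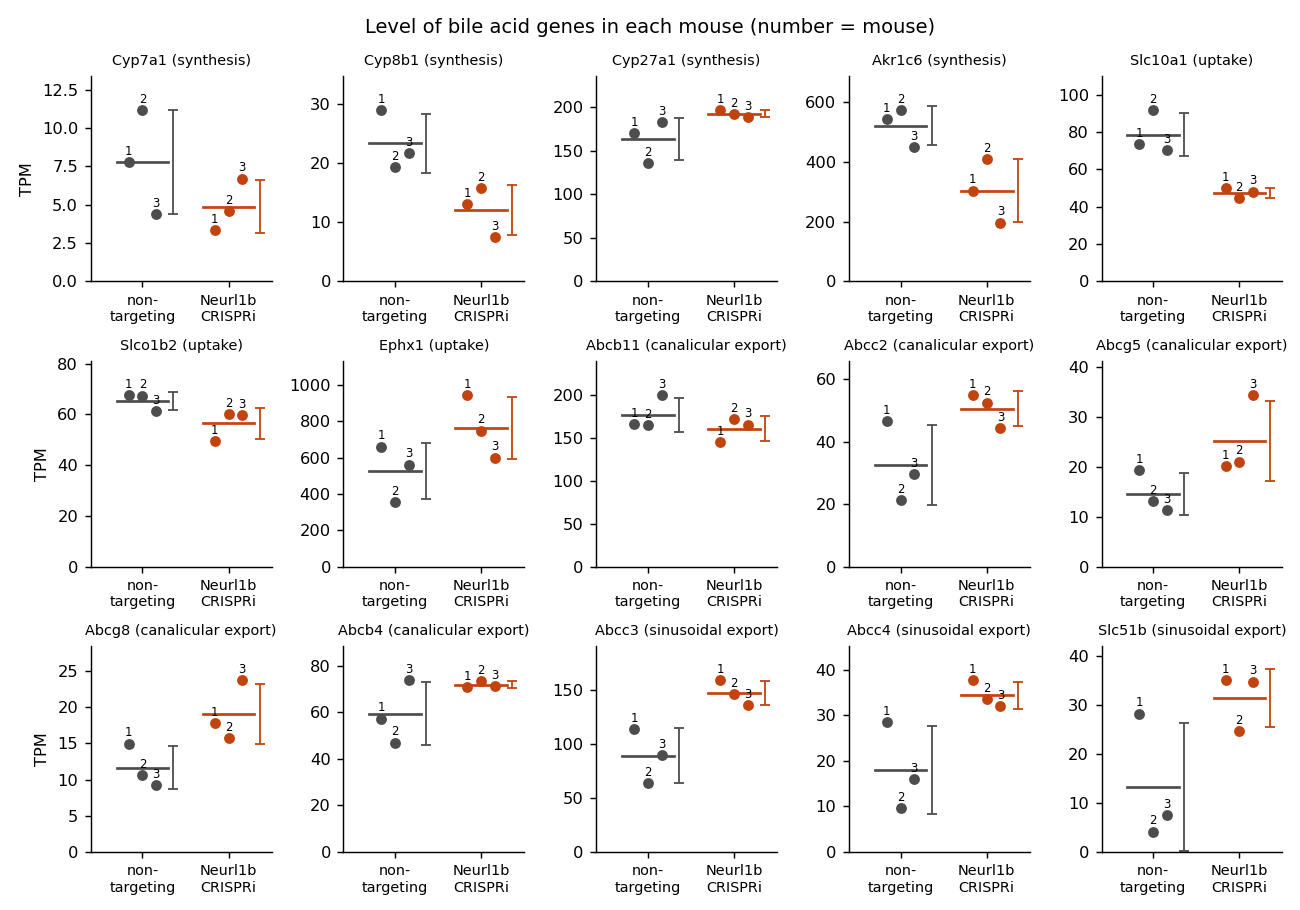
TPM (y axis, from 0) of 15 members in each of the 3 non-targeting (grey) and 3 Neurl1b CRISPRi (orange) mice, with the mouse number beside each point, the mean as a horizontal line and the SD as a bar. Slc10a1, Cyp8b1 and Akr1c6 are lower and Abcc3 and Abcc4 higher in all 3 Neurl1b CRISPRi mice, while for Slc51b and Abcc2 non-targeting mouse 1 lies at the level of the Neurl1b CRISPRi mice.

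The log2 ratios within a library, as differences of log2(TPM + 1), depend little on scaling for genes well above 1 TPM. Ratios of 2 sinusoidal exporters were taken to Abcb11, the 1 canalicular exporter whose log2 fold change was below 0. They do not stand for canalicular export as a whole, since Abcc2, Abcg5 and Abcg8 had log2 fold changes of 0.69, 0.74 and 0.68 beside 0.75 for Abcc3. The log2 ratio of Abcc3 to Abcb11 was -0.54, -1.35 and -1.14 in the controls and 0.14, -0.23 and -0.28 in the Neurl1b CRISPRi mice. That of Abcc4 to Abcb11 was -2.50, -3.98 and -3.56 in the controls and -1.91, -2.32 and -2.33 in the Neurl1b CRISPRi mice. Both were higher in all 3 Neurl1b CRISPRi mice than in any control, by 0.89 and 1.16 on average. The exact two-sided permutation p was 0.1 for each, the smallest that 3 against 3 allows, and 0.300 adjusted over 6 ratios. The ratios used all transcripts of Abcb11, whose coding transcripts differed in the opposite direction.

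The upstream sequences of Abcc4, Abcc2 and Slc51b, exporters with log2 fold changes above 0, are shown as examples that hold a motif of those searched. Capitals mark the antioxidant core for Abcc4 (chr14:118706220-118706469, minus strand, the upstream of 2 starts, where the core lies on the opposite strand) and Abcc2 (chr19:43782058-43782307, plus strand), and the half-site for Slc51b (chr9:65422774-65423023, minus strand). The window of Abcc2 also holds the half-site, which is not marked.
Abcc4: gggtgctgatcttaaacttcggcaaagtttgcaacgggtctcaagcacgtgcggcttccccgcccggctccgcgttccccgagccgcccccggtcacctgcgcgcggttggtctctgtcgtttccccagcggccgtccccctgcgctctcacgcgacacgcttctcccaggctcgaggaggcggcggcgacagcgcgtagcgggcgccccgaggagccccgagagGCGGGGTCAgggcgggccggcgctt
Abcc2: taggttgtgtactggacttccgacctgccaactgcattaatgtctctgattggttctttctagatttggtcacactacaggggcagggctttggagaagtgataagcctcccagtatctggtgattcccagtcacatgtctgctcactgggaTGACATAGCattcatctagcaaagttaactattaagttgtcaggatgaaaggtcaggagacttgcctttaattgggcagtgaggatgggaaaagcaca
Slc51b: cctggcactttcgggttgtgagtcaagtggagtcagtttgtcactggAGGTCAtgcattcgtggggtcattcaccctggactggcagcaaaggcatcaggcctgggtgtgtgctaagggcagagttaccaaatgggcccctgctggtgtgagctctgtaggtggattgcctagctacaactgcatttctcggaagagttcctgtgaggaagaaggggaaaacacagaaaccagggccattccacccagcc
The antioxidant core began 25 bases before the start of Abcc4 and 98 bases before that of Abcc2. It also stood in the window of Cyp8b1, which had less TPM in the Neurl1b CRISPRi mice, and in those of Acox2 and Klb. The half-site also stood in windows of the exporters Abcb11, Abcg2 and Slc51a, which are not shown. Their log2 fold changes were -0.14, 0.44 and 0.02. Abcc3 is not in the promoter table.

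How the TPM of a gene was divided among its transcripts differed between libraries, and for some exporters this bears on the comparison. In GENCODE vM21, which lists 99.0% of the deposited transcript identifiers, protein-coding transcripts held 85.9%, 80.4% and 76.7% of the members' TPM in the control mice, against 84.0% to 86.5% in the Neurl1b CRISPRi mice. For Abcb11, a non-coding transcript of 648 bases, ENSMUST00000133663.2, had 98.98 to 167 TPM and the main coding transcript of 4893 bases, ENSMUST00000102710.10, had 31.1 to 47.4 TPM. The coding transcripts of Abcb11 summed to 50.3, 34.7 and 32.2 TPM in the controls and to 45.4, 46.8 and 45.1 TPM in the Neurl1b CRISPRi mice, so that the log2 fold change was 0.25 (standard error 0.20, limma adjusted p = 0.514) and opposite in sign to that of the gene. For Abcb4, a retained-intron transcript of 680 bases, ENSMUST00000197150.2, had 0.895, 13.2 and 36.6 TPM in the controls and 2.76, 5.85 and 4.20 TPM in the Neurl1b CRISPRi mice. Its coding transcripts had 56.3, 33.8 and 37.1 TPM in the controls and 67.8, 67.5 and 66.9 TPM in the Neurl1b CRISPRi mice. On these the groups were apart, and the log2 fold change was 0.69 (standard error 0.21, limma adjusted p = 0.337) where that of the gene was 0.30.

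The same division touched Abcc3 and Cyp27a1. Coding transcripts held 24.9% to 31.0% of the TPM of Abcc3, with 34.1, 15.96 and 22.3 TPM in the controls and 49.3, 41.6 and 39.9 TPM in the Neurl1b CRISPRi mice, which were apart as the whole gene was. Those of Cyp27a1 had 110, 56.7 and 66.4 TPM in the controls and 130, 109 and 111 TPM in the Neurl1b CRISPRi mice. Non-targeting mouse 1 then lay within the Neurl1b CRISPRi range, so the groups of Cyp27a1 were no longer apart, while the log2 fold change was 0.63 (standard error 0.25, limma adjusted p = 0.358). On coding transcripts alone, 5 members were apart and higher (12.7% of all genes) and 5 apart and lower (4.01% of all genes), and none passed an adjusted p of 0.05 (0.0105% of all genes). A short transcript gains more TPM per read than a long one, and the share of reads in each is unknown.

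**Figure D3:**
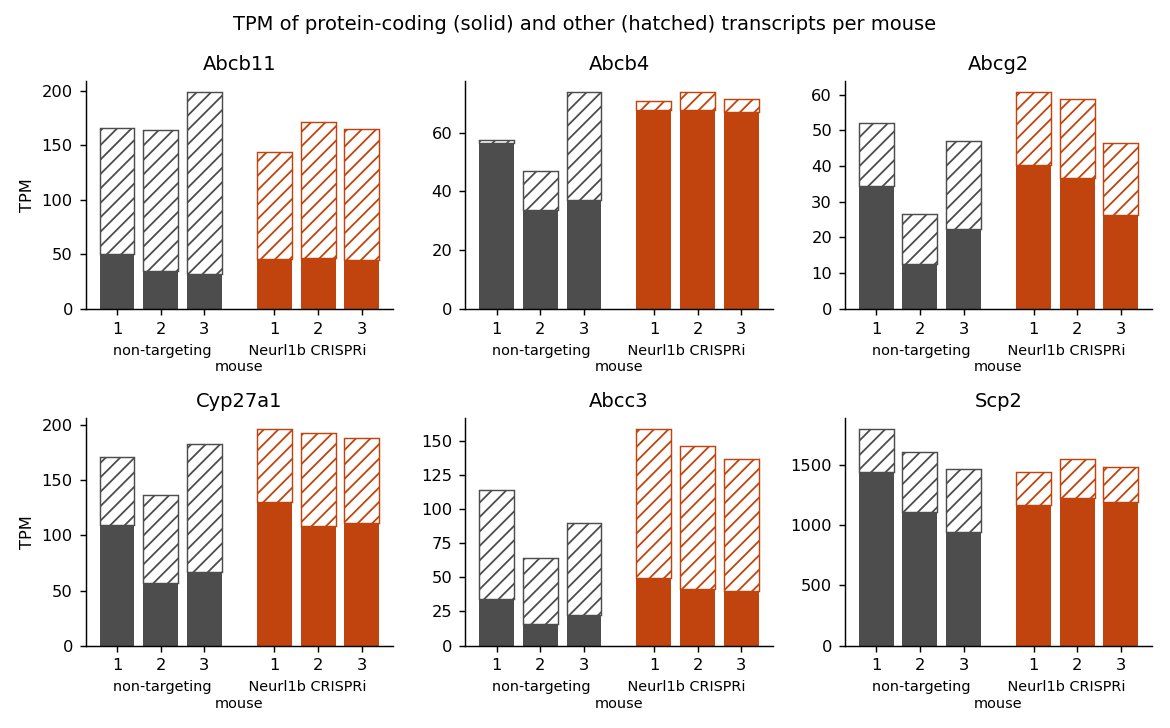
TPM (y axis, from 0) of protein-coding transcripts (solid) and of all other transcripts (hatched) of 6 members in each mouse (x axis), stacked to the gene's total. For Abcb4 the coding part is 66.9 to 67.8 TPM in the Neurl1b CRISPRi mice and 33.8 to 56.3 TPM in the controls, although the totals overlap, and for Abcb11 most of the total is non-coding in every mouse.

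The receptors among the members were low. Klb, the co-receptor through which FGF15 from the gut lowers Cyp7a1, had 2.42, 2.34 and 1.62 TPM in the controls and 2.26, 2.24 and 2.80 TPM in the Neurl1b CRISPRi mice, with overlap. Gpbar1, the membrane receptor for bile acids found on non-parenchymal cells, was at 0 in 4 libraries and at 0.0271 and 0.0328 TPM in the other 2.

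Regulators and further carriers of the pathway were read from a list of 24 genes that are no members, of which 20 were tested. None passed an adjusted p of 0.05, with 2 apart and higher (12.5% of all genes), 4 apart and lower (4.57% of all genes), and a median log2 fold change of -0.09. Nr1h4, which encodes FXR, had 27.3, 32.3 and 26.0 TPM in the controls and 23.9, 26.7 and 26.3 TPM in the Neurl1b CRISPRi mice. Its target Nr0b2, which encodes the repressor SHP, had 48.3, 42.4 and 20.99 TPM and 51.9, 39.3 and 47.6 TPM in the same order. The levels of both overlapped between the groups. In 2 other listed regulators the groups were apart. Mafg had 35.7, 18.7 and 23.9 TPM in the controls and 41.9, 37.6 and 36.8 TPM in the Neurl1b CRISPRi mice (log2 fold change 0.60, limma adjusted p = 0.352). Nr1h3 had 91.4, 111 and 102 TPM and 87.95, 84.6 and 73.7 TPM in the same order (log2 fold change -0.30, limma adjusted p = 0.408). The 4 genes with the smallest p were Sult2a8, a bile acid sulfotransferase, the organic anion carrier Slc22a7, the multidrug exporter Abcb1a and the exporter Abcc6. Sult2a8 had 4.47, 10.4 and 12.7 TPM in the controls and 1.60, 1.86 and 2.59 TPM in the Neurl1b CRISPRi mice (log2 fold change -1.67, SE 0.33, limma adjusted p = 0.259). Slc22a7 had a log2 fold change of -1.14 and Abcc6 of -0.58, while Abcb1a, with 4.52, 1.83 and 1.99 TPM in the controls and 7.74, 4.62 and 5.57 TPM in the Neurl1b CRISPRi mice, had 0.93. The limma adjusted p of these 3 was 0.332 to 0.341. The groups were apart in all 4 genes, for which they were in effect chosen.

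**Figure D4:**
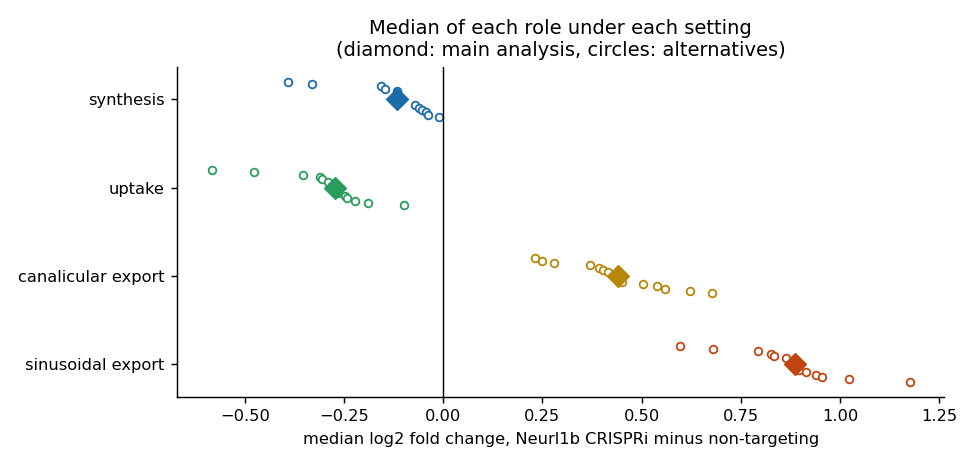
Median log2 fold change (x axis, Neurl1b CRISPRi minus non-targeting) of the tested members of each role (y axis), for the main analysis (diamonds) and 16 alternatives (circles). In all 17 settings shown the medians of canalicular and sinusoidal export lie above 0 and those of synthesis and uptake below 0, with 0.60 as the lowest sinusoidal and -0.01 as the highest synthesis value. The median of all genes, not drawn, was 0.18 in the main analysis, 0.29 without non-targeting mouse 1, 0.20 on coding transcripts and -0.0013 after median-of-ratios scaling. The settings reuse the same 6 libraries and are not independent.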

How the data were processed

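The members, the lists of other genes and the tests were chosen with earlier results of these data known. The deposited values are TPM of 117486 transcripts in 6 libraries, 1 per mouse, made by the authors with kallisto (genome build mm39) per the submitters' processing notes. Its version, the transcript set and any filter: not given in the sources used here. From each liver 400 mg was lysed, and RNA was poly(A)-selected per the labels' protocols. Transcripts were summed by symbol, and the 168 without one were left out. Genes averaging at least 1 TPM, 10598 in number, entered a limma 3.58.1 fit (R 4.3.3) to log2(TPM + 1) values (trended prior, no covariate, two-sided, Benjamini-Hochberg over all genes, intervals at 95%). The scripts were tested on simulated data. Folds are ratios of mean TPM, and log2 fold changes understate low genes. Each library being a separate mouse, limma p-values weigh a group difference against the spread between mice, moderated over all genes. Named in full were Cyp7a1, Cyp8b1, Slc10a1, Abcb11, Slc51b and up to 4 tested members per role or synthesis step, and 4 listed genes, with the smallest p. The alternatives varied pseudocount, filter, scaling, prior, replicate block and mice, and, chosen after seeing the data, used coding transcripts only. Transcript types and lengths are from GENCODE vM21 (GRCm38) and were matched by identifier, with no coordinates used across builds.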

Additional observations from a re-analysis of the deposited data

How the results depend on the processing

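None of the 37 tested members passed in 15 of 17 alternatives, the looser adjusted p of 0.1 among them. The exceptions were the fits without non-targeting mouse 1, with 11 members, or 2 with median-of-ratios scaling as well, so leaving out 1 mouse gave 0 to 11. Higher members with groups apart numbered 5 to 16 with 1 mouse left out. The 16 came without non-targeting mouse 1, 43.2% of the tested members beside 52.3% of all genes, and 9 came without Neurl1b CRISPRi mouse 3. After scaling without non-targeting mouse 1 there were 9 (24.4% of all genes). Lower ones numbered 5 to 10 with 1 mouse left out (10 without non-targeting mouse 3). They numbered 8 after scaling (9.37% of all genes) and 11 after scaling without non-targeting mouse 1 (25.1% of all genes). The share of all genes was not counted without non-targeting mouse 3 or Neurl1b CRISPRi mouse 3, so those counts are not results about the members. Fewer mice make it easier for groups to be apart. The median of synthesis was -0.33 after scaling and -0.39 also without non-targeting mouse 1, and -0.16 to -0.01 with 1 mouse left out. That of uptake was -0.48 and -0.58 in those settings, -0.10 without the filter and -0.35 to -0.19 with 1 mouse left out. That of canalicular export was 0.23 after scaling, 0.68 on coding transcripts and 0.25 to 0.62 with 1 mouse left out. Sinusoidal export ranged from 0.60 to 1.18 and all members from 0.06 to 0.28 with 1 mouse left out, and after scaling all members were at -0.02.

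Single log2 fold changes near 0 changed sign in 11 members. After scaling these were Abcd3 (-0.10), Amacr (-0.084), Baat (-0.022), Slc51a (-0.13) and Klb (-0.0027), and also without non-targeting mouse 1 Cyp27a1 (-0.066), Abcd3 (-0.048), Abcb4 (-0.065), Slc51a (-0.20) and Klb (-0.027). On coding transcripts they were Amacr (-0.044), Scp2 (0.059) and Abcb11 (0.25). With 1 mouse left out, Cyp7b1 ranged from -0.67 to 0.057, Amacr from -0.16 to 0.44 and Atp8b1 from -0.067 to 0.28, each changing sign without non-targeting mouse 3. Abcd3 ranged from -0.054 to 0.30 and Slc51a from -0.15 to 0.16, both changing sign without non-targeting mouse 2, and Slc51a was -0.080 without Neurl1b CRISPRi mouse 3. The cause was not tested.

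The mouse number as a replicate block left 0 members past the threshold. Nothing says that equal numbers mark a pair, and the deviations of same-numbered mice correlated at 0.06, -0.10 and -0.28 across genes, so the numbers were not treated as pairs. TPM keep no depth, so the precision of low members such as Slco1a1, Slc10a5 and Gpbar1 is unknown.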

Other observations

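Transcript models differed between libraries in 3 further synthesis genes in a way the gene totals do not show. These genes were chosen after their values were seen. For Scp2, a non-coding transcript of 868 bases, ENSMUST00000145721.2, had 146, 301 and 259.8 TPM in the non-targeting mice and 72.4, 125 and 123 TPM in the Neurl1b CRISPRi mice, and it was lower in all 3 of the latter than in any control. The coding transcripts of Scp2 summed to 1439, 1111 and 942 TPM in the controls and 1165, 1228 and 1190 TPM in the Neurl1b CRISPRi mice, with overlap. For Acot8, coding transcripts held 79.7%, 62.2% and 45.3% of TPM in the controls and 78.6%, 65.4% and 69.2% in the Neurl1b CRISPRi mice. For Amacr they held 72.6%, 89.4% and 98.96% in the controls and 78.9%, 76.6% and 74.1% in the Neurl1b CRISPRi mice, and a non-coding transcript of 633 bases held the rest. In both genes the shares of the Neurl1b CRISPRi mice lay within the range of the controls, which differed among themselves. Across all transcripts, the retained-intron class held 4.61%, 6.48% and 5.84% of TPM in the control mice, against 4.60% to 5.05% in the Neurl1b CRISPRi mice. Its part in the results was not tested.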
